A study of Mus musculus with 6 samples.

Results

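The Notch ligands Dll1, Dll3 and Jag1, the receptors Notch1, Notch2 and Notch3, and the transcription factor genes Hes1, Hes5, Hes6 and Hey1 were examined in cells sorted from the ventral mesencephalon of mouse embryos at embryonic day 12.5. They were taken as every probe set whose platform gene symbol was exactly 1 of these 10 names. This gave 17 probe sets of 45037, for 10 genes of 18201 named on the array. RNA from sorted cells was measured on Affymetrix arrays, 3 biological replicates per group, 1 array each. The first group held GFP-positive cells of Ngn2-GFP mice (strain CD1/129), whose GFP marks expression of Neurog2 (Ngn2), a proneural transcription factor; the submitters label them dopaminergic progenitors. The other group held GFP-negative cells of Lmx1a-GFP mice (strain C57BL/6), where GFP marks Lmx1a, a transcription factor of dopaminergic progenitors; these cells were labelled non-dopaminergic and served as the reference of the design. The groups therefore differed in reporter line, strain and sort gate together, and the effects of these 3 cannot be told apart. Neither gate used a Notch gene, and each array reads a mixture of cells, so fewer cells of a type and less RNA per cell cannot be told apart either.

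Notch signalling passes between touching cells. A ligand of the Delta or Jagged family on 1 cell binds a Notch receptor on its neighbour, the receptor is cut by an ADAM protease and then by gamma-secretase, and its freed intracellular domain joins the DNA-binding protein Rbpj to switch on genes such as Hes1 and Hes5. Hes proteins repress proneural genes, including those that drive Delta ligands, so that in the embryonic brain cells that differentiate tend to show ligand and their neighbours to keep receptor and Hes activity. Hes6 is the exception in its family, since it opposes Hes1 and is found in cells that enter differentiation. A sort on a Neurog2 reporter could thus be asked whether the ligand side and the receptor and target side of the pathway are set apart in these populations. The reference, however, was not the GFP-negative part of that sort, and its arrays also carried Neurog2 signal (338, 388 and 334). The comparison therefore does not set sending cells against receiving cells.

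RefSeq promoters (GRCm38.p6) were available for 8 of the 10 genes, 10 start sites in all, and not for Hes1 and Hey1. The 3 printed here are those of Hes5, the Notch target with a core Rbpj motif, Hes6, the member that opposes Hes1, and Notch3, the member with the smallest p-value. Each is the 250 bases before the start site, 5′ to 3′ on the gene's strand. The Hes5 window lies at chr4:154960673-154960922 on the plus strand, and its capitals mark GTGGGAA, the core bound by Rbpj, and its reverse complement.
Hes5: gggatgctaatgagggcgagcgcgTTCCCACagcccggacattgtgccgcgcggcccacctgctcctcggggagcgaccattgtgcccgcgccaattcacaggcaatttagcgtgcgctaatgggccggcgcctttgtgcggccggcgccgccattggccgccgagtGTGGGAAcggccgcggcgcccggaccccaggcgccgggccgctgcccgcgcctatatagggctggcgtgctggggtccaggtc
The Hes6 window lies at chr1:91413223-91413472 on the minus strand, before the downstream of its 2 listed starts. Its capitals mark an E box (CANNTG), the site type bound by proneural factors, and a TATA box (TATAAA).
Hes6: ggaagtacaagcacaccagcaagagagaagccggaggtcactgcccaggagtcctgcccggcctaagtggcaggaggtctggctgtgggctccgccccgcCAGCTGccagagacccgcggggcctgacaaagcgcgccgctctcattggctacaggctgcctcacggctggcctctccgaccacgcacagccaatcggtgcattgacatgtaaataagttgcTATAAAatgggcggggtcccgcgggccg
The Notch3 window lies at chr17:32166891-32167140 on the minus strand, and its capitals mark N boxes (CACNAG), the site type bound by Hes repressors, on either strand.
Notch3: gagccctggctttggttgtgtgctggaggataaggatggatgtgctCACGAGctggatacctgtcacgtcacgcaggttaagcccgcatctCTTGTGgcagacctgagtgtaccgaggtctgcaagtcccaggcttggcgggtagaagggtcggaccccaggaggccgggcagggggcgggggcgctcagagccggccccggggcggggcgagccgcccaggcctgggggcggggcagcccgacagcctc
The Rbpj core was searched on both strands. It stood in 1 of the 10 member promoters, that of Hes5, where matches began 226 and 83 bases before the start, and in 5.42% of all 32851 promoters of the same length. An E box stood in 7 of the 10 member promoters and in 66.2% of all, an N box in 4 and in 36.7%, and a TATA box in 1 and in 12.4%. No matches overlap each other in the printed windows, where an E box of Hes5 and an N box of Hes6 stand in lower case. These matches describe letters and were not tied to any measured binding.

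None of the 10 genes passed the test for a difference between the sorted populations after Benjamini-Hochberg adjustment over all tested genes in the limma fit, where 1.06% of 12047 genes did (128, of which 51 were higher and 77 lower in Ngn2-GFP positive cells). At an unadjusted p under 0.05 there was 1 member, Notch3, against 10.8% of all tested genes. No other tool was run. With each probe set tested on its own, 0 of the 17 passed, where 0.537% of 27738 probe sets did, and 2 had groups that did not overlap, against 13.9%. All 17 probe sets exceeded the level required for testing, the 40th percentile of the signals of an array in 3 or more arrays, and 16 of them did so on all 6 arrays. Of the 10 genes 5 had positive and 5 negative log2 differences, Ngn2-GFP positive minus Lmx1a-GFP negative, with a median of -0.05, beside 0.03 for all tested genes. The 95% interval of the difference stayed within a 2-fold difference either way for 7 of the 10 genes, and for 47.6% of all tested genes. These 7 were Dll1, Dll3, Jag1, Notch1, Notch2, Hes6 and Hey1, each on its brightest probe set. Among single probe sets 8 of the 17 stayed within that bound, against 38.5% of all tested probe sets. The brightest probe set of Notch2 did not in that fit (-1.01 to 0.25). The plot of member signals shows the array values behind these counts.

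**Figure D1:**
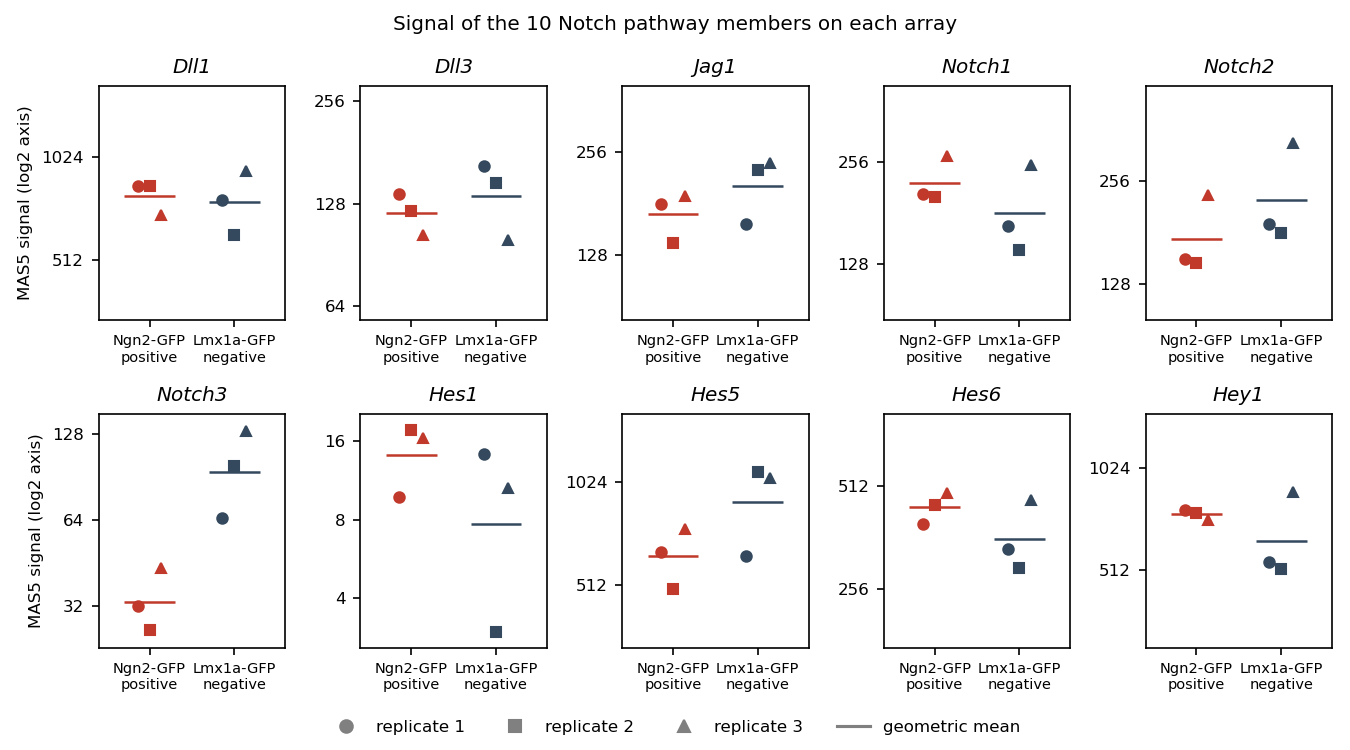
MAS5 signal (log2 axis, 1 panel per gene, brightest probe set) of the 10 members on 3 Ngn2-GFP positive arrays (left, red) and 3 Lmx1a-GFP negative arrays (right, blue-grey); symbols are replicates and lines are geometric means. The groups overlap for 9 genes and are apart for Notch3, at 26.3 to 43.4 in positive and 64.8 to 131 in negative cells.

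Some facts of the arrays bear on every value below. The deposited signals had a trimmed mean (2%) of 100 on each array, and median signal was 19.3 to 24.8 on positive arrays, against 18.1 to 25.5 on negative arrays. Hybridization spike-ins averaged 2293 and 2352 on positive replicates 1 and 2, while positive replicate 3 had 5018 and the negative arrays 4254 to 6560, so positive replicate 3 stood with the negative arrays in this measure. Likewise 18S ribosomal RNA signal was 3713 and 3696 on these 2 arrays and 7241 to 9276 on the other 4. The ratio of 3' to 5' Gapdh signal was 4.41 and 4.73 on these 2 and 5.94 to 9.21 on the other 4. The same ratio for actin was not lower on these 2 arrays, and ran only from 0.969 to 1.16 over all 6. The part of these measures in the results was not tested. The marker lists went with the dopaminergic label of the positive cells relative to the negative cells, while their label as progenitors was not tested. The signals of dopaminergic markers added up to between 4439 and 5826 on positive arrays and between 1784 and 2076 on negative arrays, where 6 of 9 tested markers were higher in positive cells, a direction that the sort favoured. For midbrain GABAergic markers the sums were between 1980.3 and 2219 on positive arrays and between 5236 and 5403 on negative arrays, with 5 of 6 lower. Radial glia markers reached 4005 to 6193 on positive arrays, against 7683 to 8915 on negative arrays, with 2 of 10 lower (Pax6 and Fabp7). Vim and Fabp7 carried most of the signal in these sums. All 10 had negative log2 differences, but the groups overlapped for Nes, Vim, Sox2, Gli3 and Ptprz1. General neuronal markers reached 14350.3 to 21530.2 on positive arrays, against 17557 to 22321 on negative arrays, with 0 of 10 called (limma). The 2 at an unadjusted p under 0.05 had opposite signs, Gap43 at 0.65 and Map2 at -0.73. Negative cells also carried more signal from blood and microglia, with erythroid sums of 306 to 614 on positive arrays, against 7378 to 14459 on negative arrays (4 of 4 tested genes lower). Microglial sums were 22.8 to 48.1 on positive arrays, against 389 to 844 on negative arrays (4 of 6 lower). The part of these cell types in the Notch gene values was not tested.

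The ligands were taken first. Dll1, the main Delta ligand of neurogenic regions and a direct target of proneural factors, had signals of 841, 841 and 692 in Ngn2-GFP positive cells, against 768, 606 and 934 in Lmx1a-GFP negative cells. The highest and the lowest of these values were both negative arrays, so the positive values lay inside the negative range. The log2 difference was 0.06 (SE 0.22, 95% interval -0.41 to 0.52, adjusted p = 0.948 by limma). Neurog2 itself, which the positive gate reports, had 706, 585 and 500.4 in positive cells, against 338, 388 and 334 in negative cells. Its groups were apart, with a log2 difference of 0.75 (SE 0.21, adjusted p = 0.155 by limma). Neither gene passed the test, and whether they differ from each other was not tested.

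Dll3, a divergent Delta protein that acts inside the cell that makes it and does not activate receptors on neighbours, had signals of 137, 122 and 103 in positive cells, against 165, 147 and 100.2 in negative cells. Its groups overlapped because negative replicate 3 was the lowest of the 6 arrays, and the log2 difference was -0.17 (SE 0.27, 95% interval -0.74 to 0.41, adjusted p = 0.850 by limma). Jag1, a Jagged ligand that marks other progenitor domains than Dll1 in the neural tube, had 181, 139 and 190.3 in positive cells, against 158, 227 and 239 in negative cells, on its brightest probe set. Its log2 difference was -0.28 (SE 0.25, 95% interval -0.81 to 0.25, adjusted p = 0.703). The other Jag1 probe sets had the same sign. Probe set 1421105_at had 33.7, 40.4 and 32.5 in positive cells, against 46.5, 44.3 and 58.8 in negative cells, without overlap, and a log2 difference of -0.49 (SE 0.36, adjusted p = 0.707 over 27738 probe sets). Probe set 1421106_at had 165, 153 and 194 in positive cells, against 202, 184 and 195 in negative cells, with overlap, and -0.19 (SE 0.23, adjusted p = 0.829).

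Among the receptors Notch3 had the widest gap. Notch3 is a Notch receptor of neural progenitors that is also known from the mural cells of blood vessels. Its brightest probe set, 1421965_s_at, had signals of 31.8, 26.3 and 43.4 in Ngn2-GFP positive cells, against 64.8, 99.3 and 131 in Lmx1a-GFP negative cells. All 3 positive arrays lay below all 3 negative ones. The log2 difference was -1.51 (SE 0.36, 95% interval -2.30 to -0.73), a signal 2.86-fold higher in negative cells, and it missed the threshold (adjusted p = 0.0852 by limma, unadjusted p = 0.00115). Groups without overlap were found for 1 of the 10 members, and for 15.5% of all tested genes. The other probe set, 1421964_at, had 19.3, 24.2 and 20.6 in positive cells, against 50.6, 20.01 and 44.1 in negative cells. It overlapped through negative replicate 2 and gave a log2 difference of -0.74 (SE 0.49, adjusted p = 0.669 over all probe sets). With probe sets ending in _s_at, _x_at and _a_at left out it stands for the gene, at adjusted p = 0.601.

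The call on Notch3 rested on which arrays were used. Without positive replicate 3 it passed, at -1.71 (adjusted p = 0.0367 by limma, in a fit that called 3.48% of all genes), but there the positive arrays are those with low spike-in signals, so group and spike-in level cannot be told apart. Over the 6 fits that leave out 1 array the difference was -1.79 to -1.28 and adjusted p 0.0367 to 0.359. With the spike-in split as a block, which rests on positive replicate 3 against the negative arrays, the difference was -1.12 (adjusted p = 0.746). The groups overlapped in the summed signal of mural markers, which was 54.1 to 103 on positive arrays and 67.9 to 132 on negative arrays, and 5 of the 8 exceeded the 40th percentile on fewer than 3 arrays. Pdgfrb, the platelet-derived growth factor receptor of pericytes, was tested at -0.26 (SE 0.56) and Rgs5, a regulator of G-protein signalling in pericytes, at -0.03 (SE 0.59). Of 10 endothelial markers 8 never exceeded that percentile on any array. Radial glia markers had the lower sums in positive cells given above. The part of these cells in the Notch3 values was not tested.

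Notch1 and Notch2, the broadly expressed receptors of neural progenitors, had groups that overlapped. Notch1 had 205, 201 and 266 in positive cells, against 166, 141 and 251 in negative cells, on its brightest probe set. That is a log2 difference of 0.30 (SE 0.26, 95% interval -0.26 to 0.86, adjusted p = 0.695 by limma). Its other probe set, 1418633_at, had the opposite sign, with 52.0, 35.1 and 61.3 in positive cells, against 74.5, 47.2 and 83.3 in negative cells, and -0.46 (SE 0.36, adjusted p = 0.722 over all probe sets). No direction can be given for Notch1. Notch2 had 152, 148 and 233 in positive cells, against 192, 180.5 and 332 in negative cells. Replicate 3 was the highest array in both groups, and the log2 difference was -0.38 (SE 0.28, 95% interval -0.995 to 0.24, adjusted p = 0.649). Its dimmer probe set, 1451889_at, had 31.3, 32.6 and 34.1 in positive cells, against 54.1, 47.6 and 23.0 in negative cells, and a difference of -0.26 (SE 0.43, adjusted p = 0.885).

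**Figure D2:**
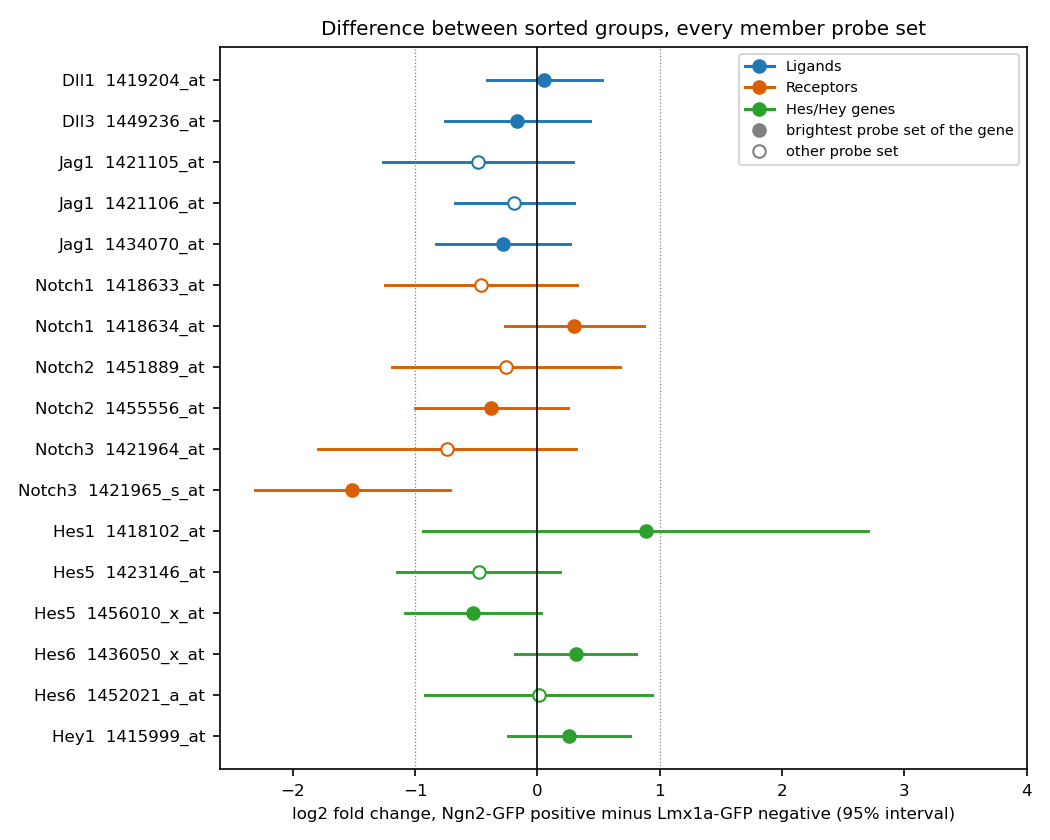
Log2 fold change, Ngn2-GFP positive minus Lmx1a-GFP negative, of all 17 member probe sets in the fit over every tested probe set; points are estimates, bars are 95% intervals, filled points mark the brightest probe set of a gene and dotted lines a 2-fold difference. The interval of Notch3 probe set 1421965_s_at alone excludes 0 before adjustment, and the probe sets of Notch1 lie on opposite sides of 0.

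The Hes and Hey genes, which encode repressors of the basic helix-loop-helix class, had estimates of differing sign. Each 95% interval included 0, and differences between these genes were not tested. Hes5, the Notch effector of neural progenitors whose promoter is printed above, had 642, 499 and 749 in positive cells, against 623, 1096 and 1056 in negative cells. Negative replicates 2 and 3 lay above every positive array and negative replicate 1 lay among them. The log2 difference was -0.53 (SE 0.25, 95% interval -1.08 to 0.02, adjusted p = 0.482 by limma). A further Hes5 probe set, 1423146_at, had 86.6, 65.4 and 68.8 in positive cells, against 94.2, 78.3 and 143 in negative cells, and a similar difference of -0.48 (SE 0.31, adjusted p = 0.661 over all probe sets). Over the 17 alternatives run Hes5 was at -0.79 to -0.26 and was called in none, with adjusted p of 0.208 to 0.9995 by limma. The alternatives reuse the same arrays, and several return the same estimate by design, so their common sign is not independent support. Radial glia markers had lower summed signal on all 3 positive arrays than on any negative array, as given above, and their part in the Hes5 values was not tested.

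Hes1, the other classical Notch effector, had 1 probe set, close to the limit of detection. It had 9.75, 17.7 and 16.5 in positive cells, against 14.2, 2.98 and 10.6 in negative cells, and exceeded the 40th percentile on 2 positive arrays and 1 negative array. The log2 difference of 0.89 (SE 0.80, 95% interval -0.84 to 2.62, adjusted p = 0.711 by limma) rests on such dim signals, and without negative replicate 2 it was 0.20. Hes6, which favours neuronal differentiation, had 396, 452 and 489 in positive cells, against 334, 294 and 466 in negative cells. Its groups overlapped through negative replicate 3, and the log2 difference was 0.31 (SE 0.22, 95% interval -0.17 to 0.79, adjusted p = 0.637). Its other probe set, 1452021_a_at, had 29.8, 33.4 and 33.2 in positive cells, against 45.7, 22.4 and 31.5 in negative cells, and a difference of 0.01 (SE 0.43, adjusted p = 0.998). The brightest probe set of Hes6, like those of Hes5 and Notch3, is of a type that can also bind related transcripts (_x_at and _s_at).

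Hey1, a Hes relative that can pair with Hes proteins and holds neural precursors undifferentiated, had 767, 753 and 721 in positive cells, against 541, 516 and 868 in negative cells. The positive arrays lay close together, with an SD of 0.05 on the log2 scale, while the negative arrays spanned them with an SD of 0.41. The difference was 0.26 (SE 0.23, 95% interval -0.23 to 0.75, adjusted p = 0.702 by limma).

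The ligand side was then set against the receptor and target side. The median log2 difference was -0.17 for the 3 ligands, -0.38 for the 3 receptors and 0.29 for the 4 Hes and Hey genes, or 0.26 without Hes6 and likewise without Hes1. To compare arrays, each gene was expressed as the deviation of its log2 signal from its own mean over the 6 arrays, and the deviations were averaged within a role. Ligands deviated by 0.06, -0.12 and -0.14 on positive arrays and by 0.05, 0.05 and 0.10 on negative arrays. Receptors deviated by -0.39, -0.50 and 0.09 on positive arrays and by -0.03, 0.06 and 0.77 on negative arrays. Hes and Hey genes deviated by -0.04, 0.13 and 0.26 on positive arrays and by -0.10, -0.52 and 0.27 on negative arrays. The -0.52 on negative replicate 2 was -0.10 without Hes1, which is near background there, and the group difference of this role was then 0.01 in place of 0.23. The groups overlapped for each of the 3 roles. The target side as grouped counts Hes6, which opposes Hes1. The ligand side counts Dll3, which does not activate receptors on neighbours. No balance was formed without Hes6 or without Dll3. The ligand side minus the receptor and target side came to 0.25, 0.02 and -0.33 on positive arrays and to 0.12, 0.32 and -0.39 on negative arrays. The difference between group means, -0.03, was smaller than the pooled SD between replicates, 0.33, and in both groups the lowest value was that of replicate 3. Without Hes1, a setting chosen after the data were seen, the difference turned to 0.13, again smaller than the SD of 0.32, and no direction can be given for the balance of the sides.

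**Figure D3:**
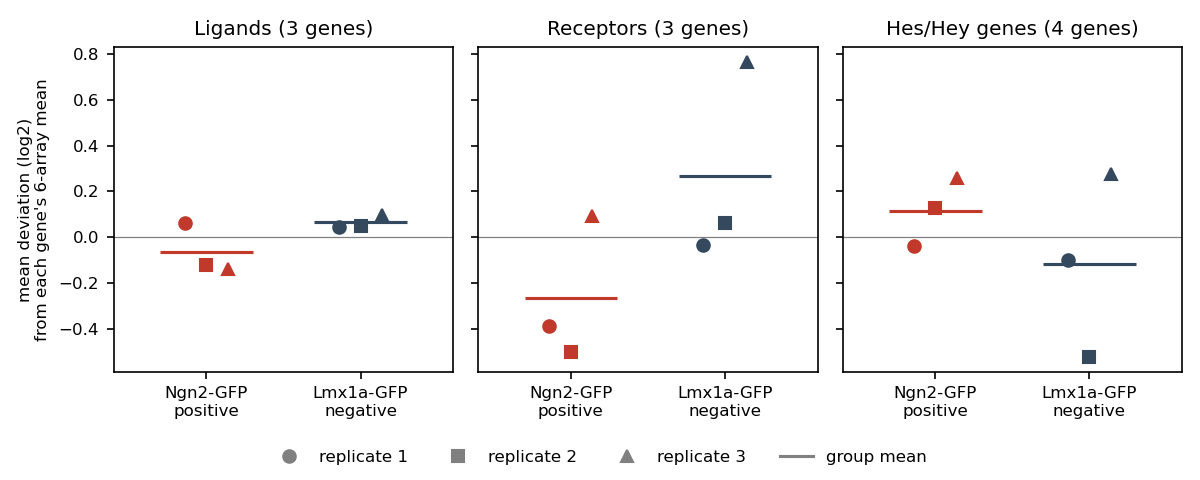
Mean deviation (log2) of the member ligands, receptors and Hes/Hey genes from each gene's mean over 6 arrays, for 3 Ngn2-GFP positive arrays (left, red) and 3 Lmx1a-GFP negative arrays (right, blue-grey); symbols are replicates and lines are group means. The groups overlap in each panel, and negative replicate 3 is the highest array in all 3, at 0.10, 0.77 and 0.27.

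The negative arrays differed more among themselves than the positive ones did, over all tested probe sets. The r of log2 signal was 0.885 to 0.897 within the negative group and 0.919 to 0.945 within the positive group. Between arrays of different groups it was 0.871 to 0.908. The negative range lies inside that range, so by this measure negative arrays were not set apart from positive ones. Negative replicate 3 was the highest of the 6 arrays for 5 of the 10 members (Dll1, Jag1, Notch2, Notch3 and Hey1), while it was the highest for 17% of all tested genes. Radial glia markers also had their highest sum there, at 8915, whereas its erythroid and microglial sums, 7378 and 389, were the lowest of the negative group; their part in this pattern was not tested. Without this array the log2 difference was 0.50 for Hey1 (adjusted p = 0.366 by limma), 0.50 for Hes6 (adjusted p = 0.384), 0.54 for Notch1 (adjusted p = 0.408) and -0.10 for Notch2 (adjusted p = 0.896). It was also -0.38 for Dll3 (adjusted p = 0.567), 0.21 for Dll1 (adjusted p = 0.734) and -0.17 for Jag1 (adjusted p = 0.820). The differences of Hey1, Hes6, Notch1, Dll3 and Dll1 were then over 1.5 times as large as with all arrays, and those of Notch2 and Jag1 were smaller by more than that factor. Over the 6 fits that leave out 1 array the difference was -0.38 to -0.018 for Dll3 and -0.47 to -0.14 for Jag1. Negative replicate 2, in turn, was the lowest of the 6 arrays for 5 members (Dll1, Notch1, Hes1, Hes6 and Hey1), and for 22.5% of all tested genes. Without it the log2 difference was 0.12 for Hey1 (adjusted p = 0.916), 0.17 for Hes6 (adjusted p = 0.880), 0.12 for Notch1 (adjusted p = 0.925) and -0.10 for Dll1 (adjusted p = 0.928), again with no call.

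Genes whose profile over the 6 arrays was most like that of Dll1 and of Hes5 were listed by Pearson's r of log2 signal, as a description. For Dll1 they were Fgf18, a fibroblast growth factor (r = 0.992), Pcyt1b, an enzyme of phosphatidylcholine synthesis (r = 0.990), and Crcp (r = 0.990). For Hes5 they were Actr6 (r = 0.996), the ubiquitin ligase Ube3c (r = 0.991) and Dcaf4 (r = 0.990). An r of at least 0.9 was reached by 215 tested genes with Dll1 and by 171 with Hes5, over 6 arrays that all genes share.

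The rest of the pathway was read from 10 lists of 63 other genes by role, of which 54 were tested, and none of the 54 passed the threshold (limma, background 1.06%). Their median log2 difference was -0.13, beside 0.03 for all tested genes, with 21 positive and 33 negative values. At an unadjusted p under 0.05 there were 9, of which 3 were higher and 6 lower in Ngn2-GFP positive cells. Of all tested genes 5.68% were higher and 5.08% lower at that level. The probe sets of Tle6, Dtx3l, Hes2 and Hes7 did not reach the level required for testing, and the other untested genes were not analysed here. Rbpj and the genes named below for an unadjusted p (Neurl1b, Rfng, Adam17, Maml2, Cir1) were chosen after their values were seen.

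On the sending side, Neurl1b, a ubiquitin ligase that acts on Notch ligands, had the largest positive value. Its signals were 56.6, 24.5 and 36.0 in positive cells, against 2.65, 2.72 and 13.2 in negative cells. The groups were apart, and only 1 negative array exceeded the 40th percentile, so the fitted log2 difference of 3.01 (SE 0.77, adjusted p = 0.113 by limma) rests on signals near background. It passed in 1 of 16 alternatives, the fit without negative replicate 3 (3.78, adjusted p = 0.0408, where 0.689% of all genes were called). Dlk1, a Delta-like protein that lacks the receptor-binding domain of true ligands, had 197, 158 and 244 in positive cells, against 82.2, 35.5 and 139.8 in negative cells. Its difference was 1.41 (SE 0.41, adjusted p = 0.195), again without overlap. It was 0.88 without negative replicate 2 (adjusted p = 0.388) and passed with the replicate number as a block (1.41, adjusted p = 0.0458), although the numbers were not found to pair the samples. Dner, a neuronal Delta-like membrane protein, had a difference of -0.62 (SE 0.31, adjusted p = 0.489), and without positive replicate 3 it was lower in positive cells by limma, at -0.99 (adjusted p = 0.0204), where group and spike-in level coincide. With the spike-in split as a block its sign turned, to 0.12 (adjusted p = 0.996). Its brightest probe set is of the _x_at type, and with _s_at, _x_at and _a_at probe sets left out Dner was at -0.13 (adjusted p = 0.872 by limma). Mib1, the ubiquitin ligase that Delta ligands need for endocytosis, was at -0.06 (SE 0.22) and Epn2, an endocytic adaptor, at 0.50 (SE 0.30).

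On the receiving side, the fringe glycosyltransferases that tune which ligand a Notch receptor answers had estimates of differing sign. None was called, and differences between these genes were not tested. Lfng had 89.9, 59.0 and 32.1 in positive cells, against 94.3, 343 and 125 in negative cells, a difference of -1.53 (SE 0.47, adjusted p = 0.226 by limma). Rfng had 72.5, 68.0 and 67.5 in positive cells, against 150.5, 126 and 106 in negative cells, a difference of -0.86 (SE 0.26, adjusted p = 0.219). The groups were apart for both. Without negative replicate 2 the Lfng difference was -0.97 (adjusted p = 0.571 by limma). Over 17 alternatives it was -2.31 to -0.21, while that of Rfng was -0.99 to -0.17. The values nearest 0 came from the mean of the tested probe sets of the gene. Mfng, the remaining fringe, was at 0.21 (SE 0.22, adjusted p = 0.745). Of the proteases, Adam10, which makes the first ligand-induced cut, was at -0.63 (SE 0.24, adjusted p = 0.355) and passed without positive replicate 3 (-0.89, adjusted p = 0.0187), where group and spike-in level coincide; with the spike-in split as a block it was at -0.11 (adjusted p = 0.996). Adam17 was at -0.73 (SE 0.29, adjusted p = 0.385). Over their 17 alternatives Adam10 was at -0.89 to -0.0053 and Adam17 at -0.96 to -0.029. Here too the values nearest 0 came from the mean of the tested probe sets of the gene. Psenen, a gamma-secretase subunit, was at -0.37 (SE 0.21, adjusted p = 0.535), and the receptor Notch4 at -0.28 (SE 0.60).

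In the nucleus, Rbpj had 409, 429 and 590.1 in positive cells, against 496, 659 and 578 in negative cells, a difference of -0.29 (SE 0.22, adjusted p = 0.648 by limma). The coactivator Maml2 was at -1.33 (SE 0.47, adjusted p = 0.316), the acetyltransferase Crebbp at -0.43 (SE 0.21, adjusted p = 0.488) and Snw1, an Rbpj partner, at 0.29 (SE 0.20, adjusted p = 0.623). Among corepressors Cir1 was at 0.71 (SE 0.27, adjusted p = 0.343), Hdac2 at -0.37 (SE 0.27), Ctbp1 at -0.12 (SE 0.19), and the Groucho genes Tle4 and Tle3, partners of Hes proteins, at -0.38 (SE 0.27) and -0.03 (SE 0.19). The attenuators Fbxw7 and Dtx4 were at -0.02 (SE 0.22) and -0.17 (SE 0.27).

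Nrarp, a feedback inhibitor that Notch signalling itself induces, gave a further reading of the target side. It had 327, 267 and 312 in positive cells, against 404, 418 and 607 in negative cells, with no overlap between the groups. The difference was -0.64 (SE 0.22, adjusted p = 0.295 by limma), and over its 17 alternatives it was -0.80 to -0.45 and never called. Heyl, a Hey gene, was at -0.67 (SE 0.52). All 4 tested genes of its list of other Hes, Hey and target genes had negative values, with a median of -0.65 and no call, where 5740 of all 12047 tested genes had negative values. In this list Hes3 and Hey2 lay near background, above the 40th percentile on 3 and 4 of the 6 arrays. Of the proneural genes tested beside Neurog2, Neurog1 was at 0.51 (SE 0.31, adjusted p = 0.569), with 218, 274 and 199 in positive cells, against 193, 95.05 and 224 in negative cells.

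**Figure D4:**
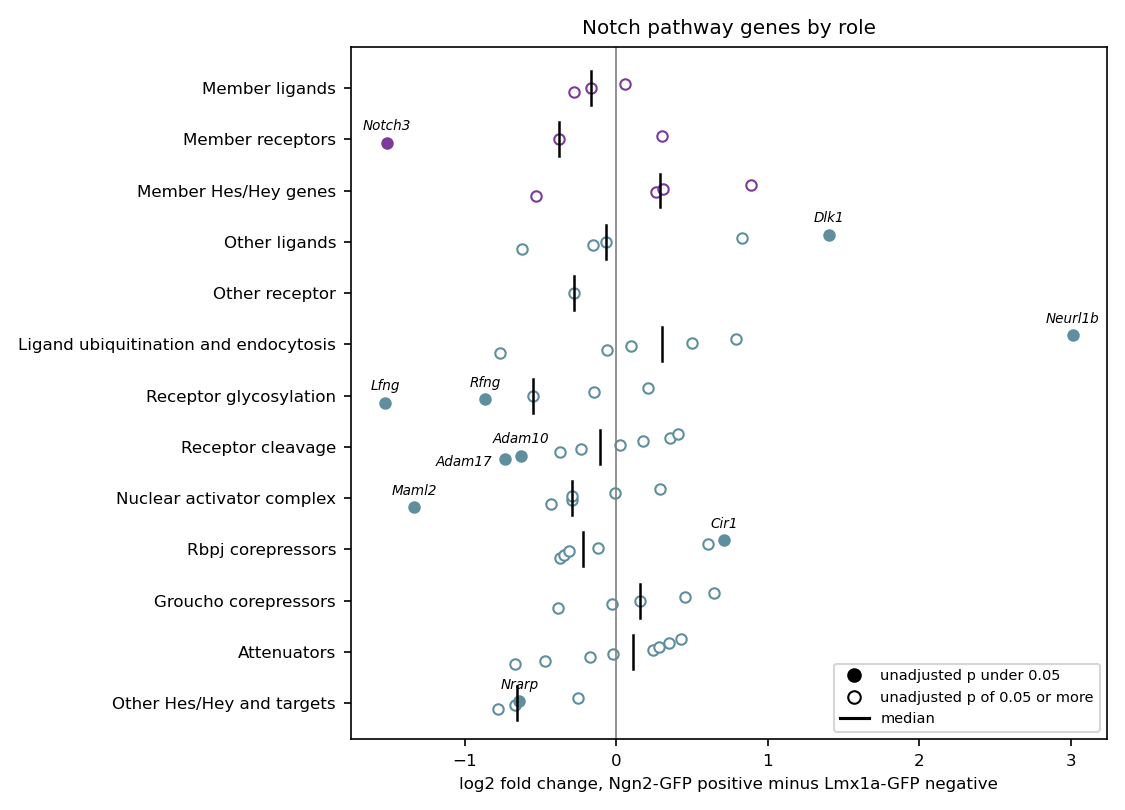
Log2 fold change, Ngn2-GFP positive minus Lmx1a-GFP negative, of the 10 members (purple) and 54 other tested Notch pathway genes (blue-green) by role; each point is a gene, filled where unadjusted p is under 0.05, and black lines are medians. No gene passed after adjustment; the filled points include Neurl1b at 3.01 and Notch3 at -1.51.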

How the data were processed

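Expression was measured on 1 Affymetrix array per sorted sample. The deposited table lists intensity on a linear scale, 1 value for each of 45101 probe sets per array. The submitters' processing notes name MAS5, limma and R 2.14.2 without their roles, and the genome build is not given in the sources used here. Every array of the deposited intensity table has a trimmed mean (2%) of 100, so total RNA is not measured, and dim signals are noisy on a log scale. Genes were named where the platform annotation gives 1 symbol. Log2 was taken after values under 1 were raised to 1. Testing required a signal above the 40th percentile on 3 or more arrays, and a gene's brightest such probe set stood for it. Means of signals are geometric. The comparison used limma 3.58.1 (R 4.3.3, eBayes with trend, two-sided, Benjamini-Hochberg adjustment over 12047 genes, threshold 0.05), and its precision is limited by the number of arrays. The fit was tested on simulated data. Alternatives covered scaling, filter, offset, probe set choice, blocks and leaving out each array. Members, lists and alternatives were chosen with earlier results of these data known. Named genes were all members and, of each pathway list, those past the threshold or else the 2 brightest; pathway genes named beyond this rule were chosen after their values were seen. Figures used matplotlib 3.10.9.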

Additional observations from a re-analysis of the deposited data

How the results depend on the processing

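No member was called in any alternative run except the fit without positive replicate 3, where Notch3 was, so that leaving out 1 array at a time gave 0 to 1. The count over all genes, 128, was 58 to 419 without 1 array, 19 with no filter, 42 without a variance trend, 34 with the spike-in split as a block and 38 on the arrays of its higher side alone. Other pathway genes numbered 0 to 2 without 1 array. The ligand median was -0.26 to -0.018 without 1 array, that of receptors -0.59 to -0.10 and that of Hes and Hey genes 0.15 to 0.50, and the receptor median was 0.047 with the spike-in split as a block and on its higher side alone. Signs turned for Notch1 with the mean of its probe sets (-0.081) and for Dll1 without 1 array (-0.10 to 0.21). They also turned for Notch2 (0.047) and Dll1 (-0.13) in the spike-in fits. Both spike-in fits give the same estimates, since each rests on positive replicate 3 against the negative arrays, so they are 1 comparison. None of these was called, and the cause was not tested. Same-numbered replicates correlated at 0.14, -0.10 and 0.03 in their deviations, and not every array correlated best with its own number, so the numbers were not taken to pair samples; the replicate block called 127 genes and 1 pathway gene, Dlk1 (1.41, adjusted p = 0.0458 by limma). Hes1 was not tested at the 60th percentile filter, nor Hes6 without _s_at, _x_at and _a_at probe sets, and role medians were not formed over single probe sets. Scaling alternatives moved the median of all genes by -0.01 and -0.03. Near background, as for Hes1 and Neurl1b, a fold change has little precision.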
